A study of Drosophila melanogaster with 14 samples.

Results

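The genes described here encode proteins of the phototransduction cascade of the fly eye. They are norpA, trp, trpl, inaC, inaD, ninaA, ninaC, Arr1, Arr2 and rdgA, 10 genes in all. A probe set, the group of short probes by which the array reads 1 transcript, was taken when the platform annotation named 1 of these genes. By that rule 7 of the 10 genes were found with 10 probe sets, out of 11981 named genes and 18769 probe sets that are not controls. The genes trp, trpl, inaC, inaD, Arr1 and Arr2 had 1 probe set each, and rdgA had 4. All 10 probe sets passed the filter on low signals, among 8641 that did. The probe set of norpA is unnamed in that annotation and was named only through the list of changed probe sets published with the study, so its genotype difference is given as a description with no test. No probe set was named for ninaA or ninaC, and both were not analysed here.

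RNA was measured in heads of fmn flies and of control flies. The fmn flies carry the fumin mutation of the dopamine transporter gene DAT and come from 5 generations of backcrosses to w1118, the control stock. Both genotypes therefore share the white mutation of that stock, which removes screening pigment from the eye. All flies were reared at 25 °C and were harvested after 4 cycles of 12 h of light and 12 h of darkness. Zeitgeber time (ZT) counts hours from lights on. Each genotype had 7 arrays, 1 every 4 h between ZT 0 and ZT 24, and each array read 1 pool of male and female heads. A genotype had a single array at each time, so the p-values below rest on arrays taken at different times of day. In the test of genotype alone the spread includes the change over the day. For cycles it is the spread around the 24 h cosine. In fits with time point as a block it is the spread of the genotype difference between times. The only age in the methods is stated for male flies, whereas these pools held both sexes.

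In fly photoreceptors, light turns rhodopsin into metarhodopsin, which activates a Gq protein and, through it, the phospholipase C encoded by norpA. The products of this enzyme lead to the opening of the cation channels TRP and TRPL in the microvillar membrane. The scaffold INAD holds phospholipase C, TRP and the eye protein kinase C together, the kinase and the arrestins end the response, and diacylglycerol kinase takes up the lipid product. The arrays measured the RNA of these genes and not their proteins or the light response.

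The arrays had nearly the same 75th percentile, with signals of 563 to 584 on the fmn arrays and 566 to 575 on the control arrays, and 8601 to 8896 probe sets reached a signal of 100 on fmn arrays against 8646 to 8843 on control arrays. DAT, the mutated gene, had signals of 1.43 to 14.5 in fmn heads and 471 to 619 in control heads, at least 5.55-fold lower in fmn against a floor of 100. The photoreceptor gene chp was bright on every array, with 10343 to 12932 in fmn heads and 11880 to 16102 in control heads. The other photoreceptor marker with a named probe set, eys, was tested too, while ninaE and the opsin genes Rh3, Rh4, Rh5 and Rh6 had none. Markers of other organs stood apart on 3 arrays. The summed signal of 5 testis and accessory gland genes had medians of 72.3 in fmn and 84.5 in control heads, but reached 1224 in fmn at ZT 4 and 1232 in control at ZT 0. The summed signal of 3 ovary genes reached 1833 in fmn at ZT 8, against a median of 49.2, and never exceeded 81.8 in control. That of 3 gut genes reached 3760 in fmn at ZT 8, against a median of 189. In control the gut sum reached 1824 at ZT 0, against a median of 209. Results of the members whose call changes without these 3 arrays are given with both values. Other genes, and the fits with time point as a block, were not checked without them. Over all 8641 tested probe sets, genotype differences with an adjusted p under 0.05 fell from 1606 to 881 without these arrays. Cycles common to both genotypes fell from 1245 to 670.

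The clearest daily change among the members was that of trpl, which encodes the second light-gated channel, a subunit that leaves the light-sensing membrane for the cell body in prolonged light. In fmn heads its signals were 9992, 12147, 15042, 17243, 13571, 10771 and 11190 in order from ZT 0 to ZT 24. In control heads they were 11511, 15370, 18924, 20248, 15972, 11950 and 11679 at the same times. In both genotypes the signal was lowest at ZT 0, climbed through the light phase, was highest at ZT 12 and was low again by ZT 20. The highest array was 1.73 times the lowest in fmn and 1.76 times the lowest in control. A cosine of 24 h gave a log2 amplitude, from the mean to the peak, of 0.33 ± 0.04 (SE) in fmn, with a peak at ZT 11 ± 0.545 h (limma F test, adjusted p = 0.00322). In control the amplitude was 0.43 ± 0.04 with a peak at ZT 10.3 ± 0.418 h (limma F test, adjusted p = 0.000608). With 1 cycle common to both genotypes, the peak was 1.69 times the trough at ZT 10.6 (limma, adjusted p = 8.88e-06). The 24 h repeat of the first time point differed from it by 0.20 on the log2 scale in fmn and by 0.03 in control.

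**Figure D1:**
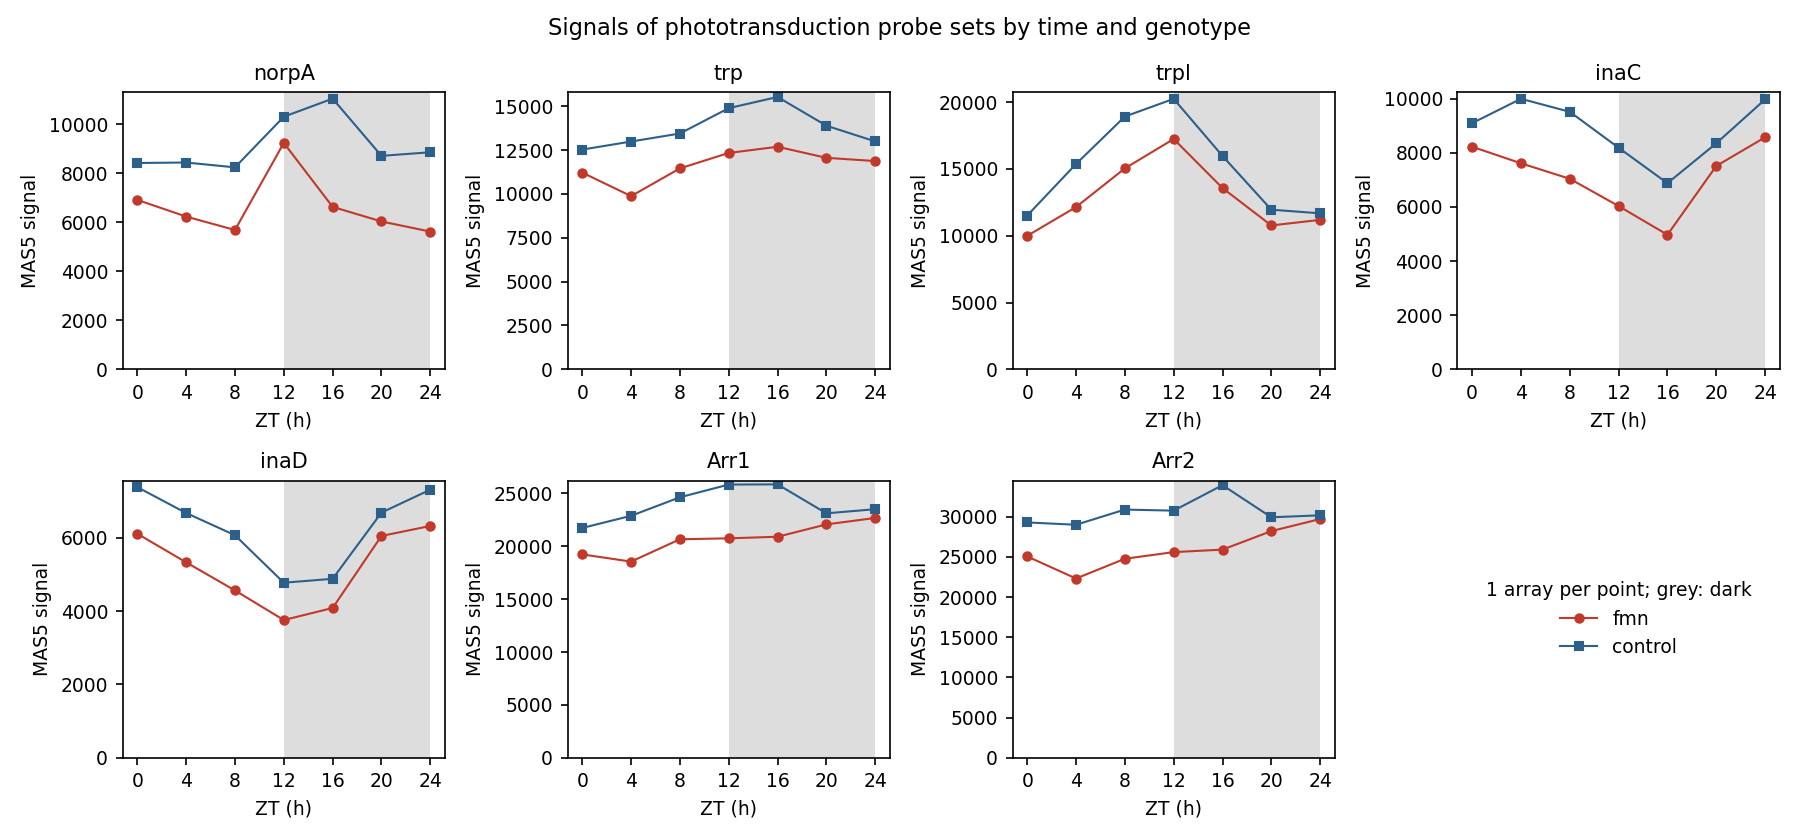
MAS5 signal (linear, from 0) of the 7 members with 1 probe set each against ZT in hours, fmn as circles and control as squares, 1 array per point and the dark phase in grey. The trpl signal peaks at ZT 12 in both genotypes, inaD is lowest at ZT 12, inaC is lowest at ZT 16, and every fmn point lies under the control point of the same time.

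The scaffold gene inaD ran the other way. Its signals in fmn heads were 6112, 5331, 4565, 3757, 4086, 6051 and 6322 from ZT 0 to ZT 24. Those in control heads were 7382, 6677, 6070, 4775, 4883, 6687 and 7313. Both genotypes had their lowest inaD signal at ZT 12, when trpl was highest. The amplitude was 0.38 ± 0.05 in fmn, with a peak at ZT 23.9 ± 0.556 h (limma, adjusted p = 0.00327). It was 0.32 ± 0.05 in control, with a peak at ZT 1.19 ± 0.643 h (limma, adjusted p = 0.00698). Over both genotypes the peak was 1.61 times the trough at ZT 0.483 (limma, adjusted p = 6.38e-05). The control cycle of inaD no longer passed when those 3 arrays with RNA of other organs were left out, or when the control array of ZT 12 alone was (limma, adjusted p = 0.0562 each). After removal of each genotype's mean, the log2 values of inaD and trpl had a Pearson r of -0.82 over the 14 arrays, which is a description of arrays that share the same times.

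The gene inaC encodes the eye-specific protein kinase C, which is bound to INAD and needed for ending the response. In fmn heads it had signals of 8224, 7613, 7041, 6033, 4972, 7514 and 8573 from ZT 0 to ZT 24. In control heads it had 9096, 9996, 9515, 8186, 6877, 8352 and 9972. The lowest array was that of ZT 16 in both genotypes. The fmn cycle had an amplitude of 0.33 ± 0.06 and a peak at ZT 1.76 ± 0.776 h (limma, adjusted p = 0.0252). The control amplitude was 0.26 ± 0.07 with a peak at ZT 3.86 ± 0.922 h, and did not pass (limma, adjusted p = 0.0916). The common cycle passed, with a peak 1.48 times the trough at ZT 2.68 (limma, adjusted p = 0.00334). The fmn cycle of inaC was the least firm of these: without the fmn arrays of ZT 0, ZT 16 or ZT 24 limma gave an adjusted p of 0.0638, 0.0533 and 0.0853, and without the 3 arrays with RNA of other organs 0.0611. The control cycle of inaC passed once the fmn array of ZT 16 was left out (limma, adjusted p = 0.0237).

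The gene trp encodes the main light-gated channel. Its fmn signals had a lowest value of 9873 at ZT 4, a median of 11871 and a highest of 12687 at ZT 16. Its control signals ran from 12525 at ZT 0 through a median of 13442 to 15525 at ZT 16. The evening maximum was shallow, with amplitudes of 0.14 ± 0.05 in fmn and 0.13 ± 0.04 in control that did not pass within either genotype (limma, adjusted p = 0.203 and 0.204). One common cycle did pass, with a log2 amplitude of 0.13 and a peak at ZT 15.5 (limma, adjusted p = 0.0247). Once the 3 arrays that hold RNA of other organs were left out it did not pass (limma, adjusted p = 0.185). The same was true when single arrays were left out, namely fmn at ZT 4 (limma, adjusted p = 0.0693), control at ZT 12 (0.0509) and control at ZT 16 (0.0774).

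For the arrestin genes no cycle was called. Arr1 and Arr2 encode the minor and the major arrestin of the fly photoreceptor, which bind metarhodopsin and stop its signaling. The common cycle had a log2 amplitude of 0.07 for Arr1 and 0.08 for Arr2 (limma, adjusted p = 0.460 and 0.417). Arr1 varied 1.22-fold between its highest and lowest array in fmn and 1.19-fold in control, and Arr2 1.33-fold in fmn and 1.17-fold in control. The phospholipase C gene norpA had a common amplitude of 0.16 with a peak at ZT 14.2 that did not pass (limma, adjusted p = 0.176). Its probe set was named through a list chosen by a test of genotype that left out the time of day. A strong cycle widens the spread in such a test, so the choice may bear on this result too.

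**Figure D2:**
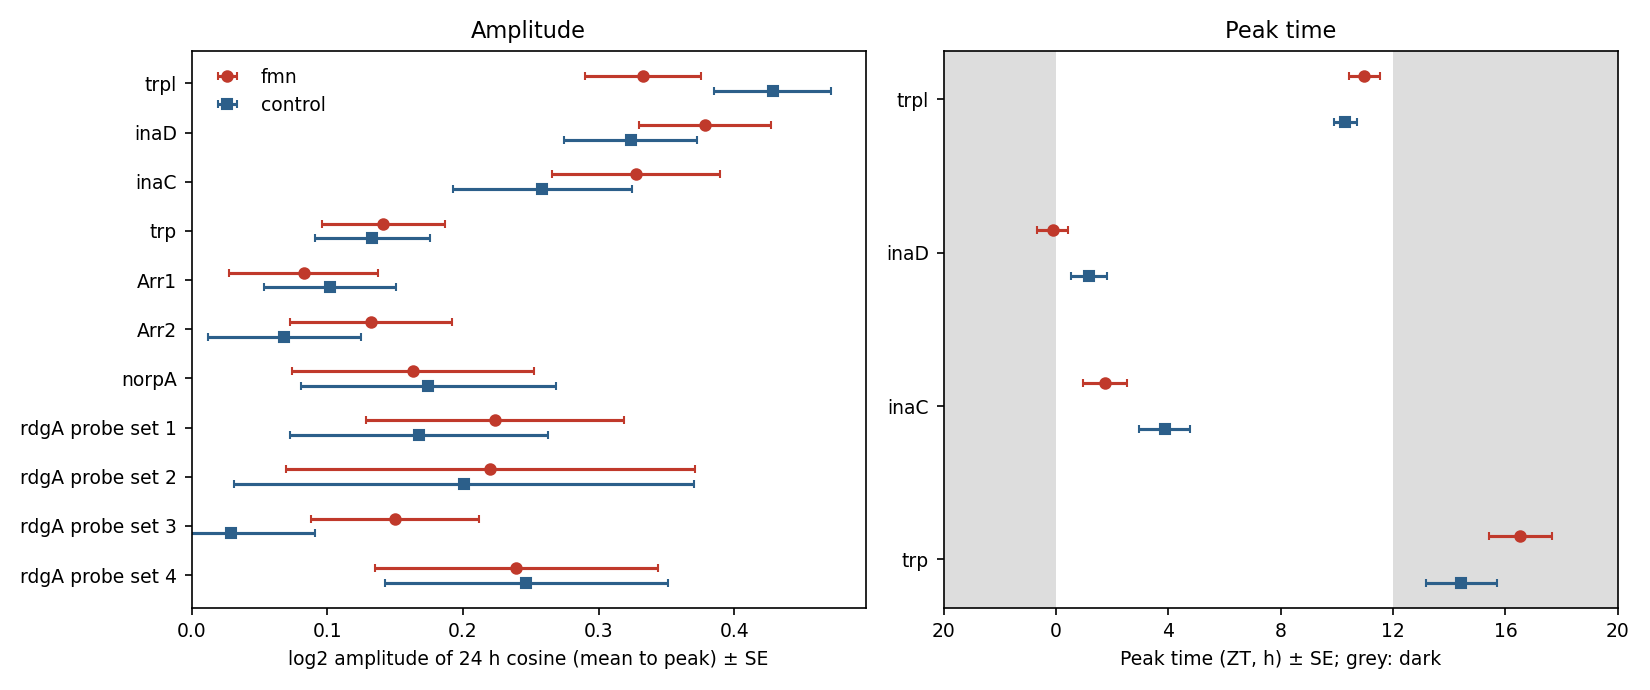
Left, log2 amplitude of the 24 h cosine (mean to peak) of all member probe sets and norpA; right, peak time in ZT hours of the 4 probe sets with a common cycle; circles are fmn, squares control, bars are SE, and the dark phase is grey. Amplitudes of trpl, inaD and inaC lie between 0.26 and 0.43, and the trpl peak falls near the end of the light phase while those of inaD and inaC fall around its start.

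By count, 3 of the 10 member probe sets cycled in fmn (trpl, inaC and inaD), where 4.28% of all tested probe sets did. In control 2 of 10 did (trpl and inaD), against 5.14% of all. With both genotypes together 4 of 10 passed (trpl, inaD, inaC and trp), against 14.4% of all. The median amplitude of the common cycle was 0.13 for the members and 0.08 for all tested probe sets. The members were named with earlier results of these data known, trpl among them as an example of a cycle. The difference in cycle between fmn and control was tested directly, and 0 of 10 members passed (limma interaction), against 0 of all 8641 tested probe sets. The test called no probe set at all, so its outcome is not particular to the members. At an unadjusted p under 0.05 there was 1 member, the dimmest rdgA probe set, among 357 of all tested. For trpl the interaction had an unadjusted limma p of 0.240, for inaD 0.257 and for inaC 0.180, so the later inaC peak of control and the smaller trpl amplitude of fmn were not larger than the spread between arrays.

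Besides the members, the 5 genes whose pattern was most like that of trpl were CG2121 (Pearson r = 0.97 over 14 arrays, after removal of genotype means), puc (0.95), SREBP (0.95), Tsp97E (0.95) and DAAM (0.94). Of these, puc encodes a phosphatase of the Jun kinase pathway, SREBP a transcription factor of lipid synthesis, Tsp97E a tetraspanin and DAAM a formin. The fitted peaks of CG2121 were at ZT 10.5 in fmn and ZT 10.3 in control, with log2 amplitudes of 0.77 and 0.90 in fmn and control. The patterns least like trpl were those of CG34134 (r = -0.96), the noncoding RNA lncRNA:CR32553 (r = -0.96) and CG31036 (r = -0.95). CG34134 ran from 309 to 8093 in fmn heads and from 277 to 9179 in control heads, with peaks at ZT 21.8 in fmn and ZT 22.2 in control.

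In the comparison of genotypes, the 6 genes with 1 probe set each had a lower signal in fmn at all 7 time points, with mean differences of 1.17-fold (Arr1) to 1.26-fold (inaC). The call required an adjusted p under 0.05 and a log2 difference of at least 0.32 in size, and by it 0 of the 10 member probe sets were called, against 7.28% of all tested. The methods' t-test with the same adjustment and fold also called 0, and at an unadjusted limma p under 0.05, 5 of the 10 were lower in fmn, against 19.5% of all. By adjusted p alone 3 were lower (trp, Arr1 and Arr2) and 0 higher, where 11.2% of all tested probe sets were lower and 7.36% higher. The median log2 difference, fmn minus control, was -0.23 for the 10 members and -0.02 for all tested, and 9 of the 10 members lay below 0 as did 56.7% of all. A whole head holds many cell types, so fewer photoreceptors and less RNA per photoreceptor cannot be told apart here. Because the values of all members come from the same 14 arrays, the 7 of 7 times lower in 1 member do not repeat those in another independently.

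The trp channel had a mean signal of 11641 ± 926 in fmn heads and 13749 ± 1097 in control heads (SD, n = 7 each), a log2 difference of -0.25 ± 0.06 (SE; limma, adjusted p = 0.0105). The groups overlapped by little, the highest fmn array (12687) lying above only 1 control array (12525). Arr1 had 19236, 18555, 20668, 20756, 20906, 22072 and 22682 in fmn heads, against 21736, 22886, 24638, 25840, 25859, 23119 and 23511 in control heads. Its difference was -0.22 ± 0.06 (limma, adjusted p = 0.0130), and the last 2 times were the closest, with -0.06 at ZT 20 and -0.05 at ZT 24. Arr2 had 25071, 22320, 24779, 25608, 25917, 28223 and 29725 in fmn heads, against 29301, 29012, 30902, 30770, 33939, 29941 and 30187 in control heads. Its difference was -0.25 ± 0.06 (limma, adjusted p = 0.0107), again with little left at ZT 24, where it was -0.02. When the 3 arrays with RNA of other organs were left out, the Arr2 difference was -0.20 with a limma adjusted p of 0.0575.

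For the genes with a daily cycle, the time of day widens the spread within a genotype, and arrays of the same time deviated together. With time point as a block, 6 of the 10 members were lower by limma's adjusted p alone, against 14.7% of all tested, and 1, inaC, passed both thresholds, against 8.04% of all. The difference of inaC was -0.33 ± 0.12, or 1.26-fold lower in fmn, with a limma adjusted p of 0.0650 without the block and 0.00282 with it. Without the block it also passed when the fmn array of ZT 24 (limma, adjusted p = 0.0408) or the control array of ZT 16 (0.0316) was left out. It ranged from -0.49 at ZT 16 to -0.15 at ZT 20. The difference of inaD was -0.29 ± 0.14 (limma, adjusted p = 0.162 without the block and 0.00180 with it), ranging from -0.46 at ZT 8 to -0.14 at ZT 20. That of trpl was -0.23 ± 0.15 (limma, adjusted p = 0.301 without the block and 0.00654 with it), from -0.38 at ZT 8 to -0.06 at ZT 24. In order along the chromosome arm, inaC is separated from DAT by 53 protein-coding genes. Of the 26 of these with a tested probe set 1 was called higher and 3 lower in fmn, with and without the block, where 7.28% of all tested probe sets were called without it, and the median was -0.01. On the same arm, inaD and trpl are separated from DAT by 906 and 945 protein-coding genes. For scb, another gene near DAT, the paper reports base substitutions in fmn under its probe set, which gave a falsely low signal. It judged the backcross apparently too short to make the region around scb alike in both stocks. Whether the stretch with inaC still carried fmn-stock chromosome, or such substitutions under the inaC probes, was not tested.

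The size of these differences moved with how bright a probe set was. Of the 239 tested probe sets with a mean signal of at least 10000, 221 (92.5%) lay below 0, with a median of -0.16, and by adjusted p alone 115 were lower and 3 higher in fmn. The median was -0.07 over the 210 probe sets between 6000 and 10000, -0.04 over the 576 between 3000 and 6000, and -0.02 over the 5555 under 1000. The trp, trpl, Arr1 and Arr2 probe sets belong to the brightest range, and Arr2 had the highest mean signal of all 8641. Within that range 21 of the 239 probe sets had a lower difference than trp, 32 than trpl, 41 than Arr1 and 20 than Arr2. For inaC 10 of the 210 in its range were lower, and for inaD 29 of the 576 in its range.

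Quantile normalization, which gives all arrays the same distribution of signals, moved these values. It left -0.13 for trp (limma, adjusted p = 0.0503), -0.09 for trpl, -0.03 for Arr1 (adjusted p = 0.518) and 0 for Arr2, which by its rank is set to the same value on every array. The inaC and inaD differences moved little, to -0.28 and -0.25. With quantile normalization and the time block together, inaC (adjusted p = 0.00361), inaD (0.00183) and trp (0.0235) were lower in fmn by limma's adjusted p, and trpl (0.0762), Arr1 (0.520) and Arr2 (1.0) did not pass. The brightest signal on any array was 22320 to 29725 in fmn and 29012 to 33939 in control.

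**Figure D3:**
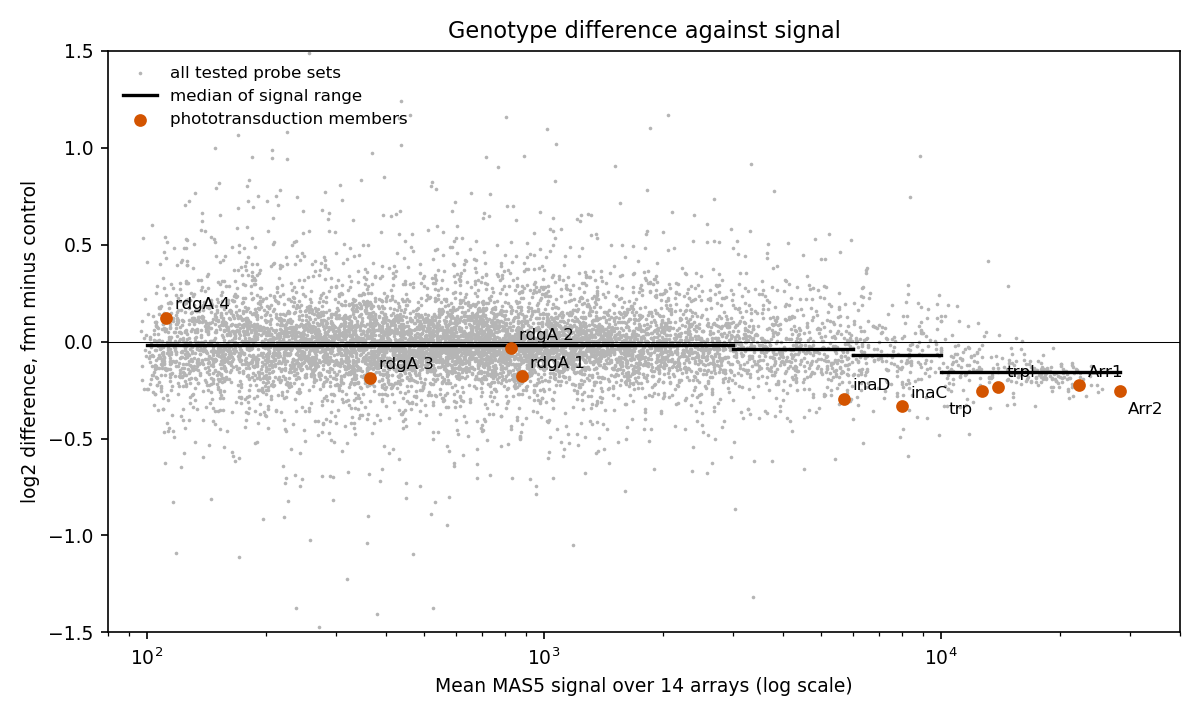
Log2 difference, fmn minus control, against mean MAS5 signal over 14 arrays (log axis) for all 8641 tested probe sets in grey, the 10 member probe sets in orange and the median of each signal range as black lines; 12 probe sets lie beyond the plotted range of 1.5. The median falls to -0.16 at signals of 10000 and more, where trp, trpl, Arr1 and Arr2 lie between -0.25 and -0.22.

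**Figure D4:**
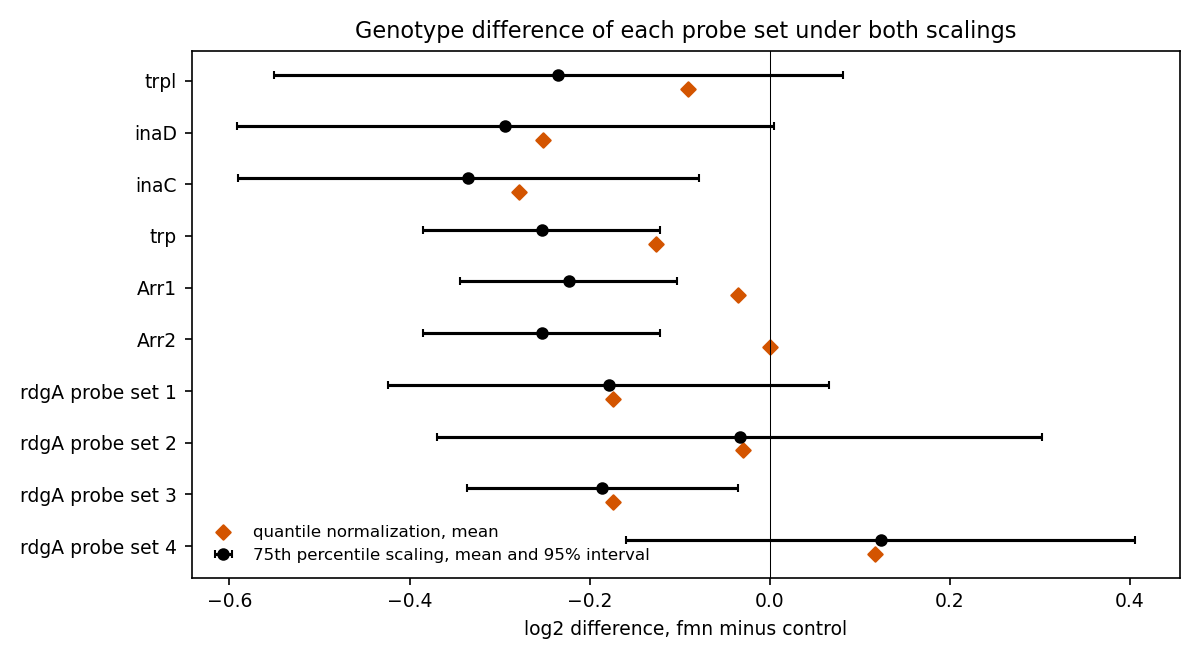
Log2 difference, fmn minus control, of each member probe set, as black circles with 95% intervals after scaling on the 75th percentile and as orange diamonds after quantile normalization. Arr2 goes to 0 and Arr1 to -0.03 under quantile normalization, while inaC stays at -0.28 and inaD at -0.25.

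The photoreceptor markers were read beside these genes. The summed signal of the markers chp and eys, 2 of the 7 listed, ran from 10997 through a median of 12195 to 13699 in fmn heads, and from 12662 through 14167 to 16971 in control heads. chp, which encodes the photoreceptor surface protein chaoptin and is itself in the brightest range, had a difference of -0.24 (limma, adjusted p = 0.0300) and was lower in fmn at 7 of 7 times, while eys had a difference of -0.07 (limma, adjusted p = 0.627). The summed signal of 4 glial genes was 14105 to 16900 in fmn and 16846 to 18552 in control, and most of it was that of Gs2, a bright glutamine synthetase gene (-0.34; limma, adjusted p = 0.00233), while the glial genes repo and moody had -0.02 and 0.08 (limma, adjusted p = 0.801 and 0.358). The summed signal of 3 neuronal genes went the other way, with a median of 4372 in fmn and 3274 in control. Of these only elav was higher in fmn (0.91; limma, adjusted p = 0.0183), at 6 of 7 times. Its lowest fmn signal, 612, lay under its lowest control signal, 823. The lowest sum of the neuronal genes was 2305 in fmn, at ZT 12, and 2860 in control. The neuronal gene brp was lower by its brightest probe set (-0.37; limma, adjusted p = 0.0458), but with the time block it did not pass (limma, adjusted p = 0.0520). For nSyb the difference was -0.09 (limma, adjusted p = 0.426). The fat body genes disagreed. Lsp2 was higher in fmn (1.71; limma, adjusted p = 0.00396), while Yp1 and Yp2 were lower (-0.28 each; limma, adjusted p = 0.0258 and 0.0140). The summed signal of 4 fat body genes had a median of 43119 in fmn and 48012 in control. The part of cell makeup in the lower member signals was not tested.

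The phospholipase C gene norpA had signals of 6907, 6227, 5680, 9229, 6623, 6028 and 5615 in fmn heads, against 8411, 8431, 8233, 10297, 11034, 8702 and 8849 in control heads. The fmn array of ZT 12 lay far above the other fmn arrays, and 6 of 7 fmn arrays lay under every control array. Its log2 difference was -0.49, given without a test because the probe set could be named only from a list of changed ones.

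The gene rdgA encodes the diacylglycerol kinase of the photoreceptor, whose loss causes retinal degeneration. Its 4 probe sets differed in brightness and in pattern. The first ran from 629 through a median of 790 to 1111 in fmn heads, and from 738 through 906 to 1126 in control heads, with a difference of -0.18 (limma, adjusted p = 0.310) and 6 of 7 times lower in fmn. In both genotypes its highest array was that of ZT 12, and its common cycle, 1.31-fold at ZT 12.1, did not pass (limma, adjusted p = 0.112). The second had a lowest signal of 501, a median of 862 and a highest of 1056 in fmn heads, against 624, 825 and 1117.7 in control heads, with a difference of -0.03 (limma, adjusted p = 0.916) that turned to 0.08 without the fmn array of ZT 12 and to 0.04 without the control array of ZT 24.

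The third rdgA probe set had 284, 338 and 418 as lowest, median and highest signal in fmn heads, against 346, 395 and 410 in control heads. Its difference was -0.19 (limma, adjusted p = 0.0800), and without the fmn array of ZT 0 it was -0.23 with a limma adjusted p of 0.0184. The fourth lay near the filter's limit, with 79.7, 127 and 133 in fmn heads against 76.7, 110 and 136 in control heads, and 1 fmn and 2 control arrays were under a signal of 100. Its difference was 0.12 (limma, adjusted p = 0.571). It was also the member with an unadjusted interaction p of 0.0215, being highest at ZT 0 in fmn and at ZT 16 in control. For none of the 4 was a genotype difference or a cycle called. Which rdgA transcripts each probe set reads was not analysed here.

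**Figure D5:**
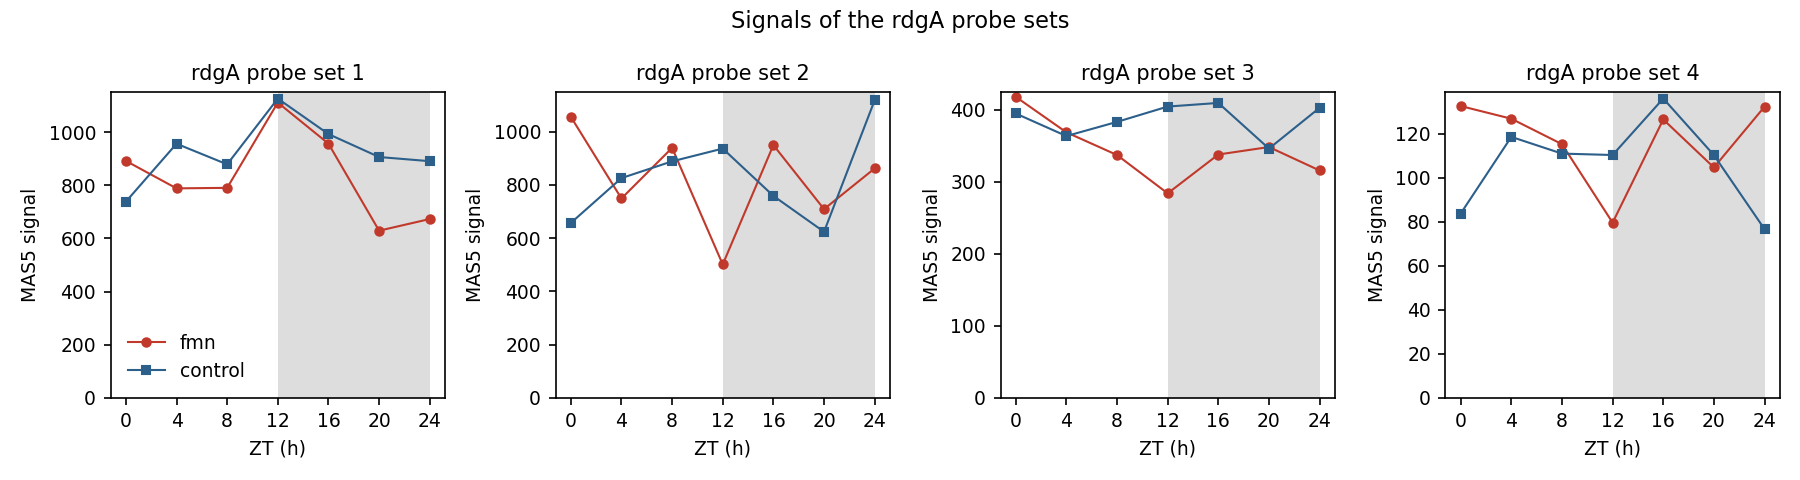
MAS5 signal (linear, from 0) of the 4 rdgA probe sets against ZT in hours, fmn as circles and control as squares, 1 array per point and the dark phase in grey. The genotypes cross in every panel, and the fourth probe set stays near a signal of 100.

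The rest of the cascade was read from a list of 26 other phototransduction genes, of which 19 were tested through their brightest probe set. By both thresholds 1 was higher and 1 lower in fmn, where 7.28% of all tested probe sets were called. By adjusted p alone 1 was higher and 5 lower, against 7.36% and 11.2% of all, and the median was -0.10. With the time block 2 were higher and 8 lower by adjusted p alone, against 10.1% and 14.7% of all. The protein kinase C gene Pkc53E then passed both thresholds (0.44; limma, adjusted p = 0.160 without the block and 0.0185 with it), and CdsA, PIP5K59B and PIP82 were lower by adjusted p alone (0.0199, 0.0275 and 0.0226 with the block). The gene called higher without the block was stops, which encodes a protein that keeps phospholipase C at its level in the photoreceptor. It had signals of 2443 to 2866 in fmn heads and 1471 to 1785 in control heads, with no overlap and a difference of 0.67 ± 0.06 (limma, adjusted p = 1.54e-06). The one called lower was Pkc98E, a protein kinase C gene, with a mean of 579 ± 217 in fmn heads and 887 ± 84.6 in control heads (SD, n = 7 each) and a difference of -0.69 (limma, adjusted p = 0.00645), though 1 of 7 times was not lower.

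Galphaq, which encodes the alpha subunit of the visual Gq protein, was lower by its brightest probe set, with 8826 to 10990 in fmn heads and 10144 to 12017 in control heads (-0.21; limma, adjusted p = 0.0214). A dimmer Galphaq probe set was higher in fmn (0.38; limma, adjusted p = 0.0410), so the probe sets of this gene disagree. Gbeta76C, the beta subunit of the same G protein, had 14301 to 18674 in fmn heads and 17224 to 18499 in control heads (-0.20; limma, adjusted p = 0.0279). Both bright probe sets lie in the range where most differences were below 0. Also lower by adjusted p alone were nrv3 (-0.25; limma, adjusted p = 0.00447) and Pis (-0.20; limma, adjusted p = 0.00711). The brightest probe set of rtp had -0.12 (limma, adjusted p = 0.151) and a dimmer one -0.21 (limma, adjusted p = 0.0483). A common cycle was called for 4 of the 19 genes, laza, Calx, CdsA and Pkc53E, where 14.4% of all tested probe sets had one. Of these, laza encodes the lipid phosphatase that works against rdgA, and it peaked at ZT 2.70 with an amplitude of 0.29 (limma, adjusted p = 0.000405). Calx encodes the sodium and calcium exchanger, and it peaked at ZT 3.80 with 0.17.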

How the data were processed

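The authors hybridized labeled cRNA of fly heads to Affymetrix Drosophila Genome 2.0 arrays and deposited the intensity of each probe set as a MAS5 signal that is linear, not log transformed. Which MAS5 version and scaling target they used is not given in the sources used here, and the normalization and filter that followed in the study are not part of these values. Depth has no counterpart on arrays, and the precision is limited by 7 arrays per genotype.

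The platform annotation gives 1 gene for 13646 of the 18769 probe sets outside the controls, more than 1 gene for 402, and no gene for 4721. Signals were turned into log2 values and centred on each array's 75th percentile. The filter dropped any probe set whose signal was below 100 on 7 or more arrays of the 14, which kept 8641. Genotypes (fmn minus control) were compared with limma 3.58.1 in R 4.3.3, with Benjamini-Hochberg adjustment over all 8641. Daily cycles were tested in limma with the cosine and sine of 24 h, within each genotype, common to both, and as an interaction. The fits were tested on simulated data first.

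Pairing was checked from the log2 deviations from the genotype means. Arrays of the same ZT correlated over probe sets at 0.13 (ZT 0) to 0.50 (ZT 4), all above 0.1. The fit with time as a block is therefore given beside those of the results printed here whose call it changes. Alternatives were other scalings, filters, tests and covariates, and leaving out arrays. The fit with quantile normalization and the time block together was chosen after seeing the data. The members and gene lists were chosen with earlier results of these data known. Named genes are all members, the listed cascade genes that were called, passed by adjusted p alone or were among the brightest, and called genes of the chromophore and photoreceptor structure lists. Also named are cell type markers, the 5 genes most like trpl and the 3 least like it, and DAT as a check. Gene order along a chromosome arm comes from the reference table of the Release 6 assembly, and coordinates, MAS5 Present calls and the study's own fold changes were not used.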

Additional observations from a re-analysis of the deposited data

Results flagged for a closer look

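Over the 22 sets of 7 arrays, 1 for each probe set and genotype with norpA included, 2 arrays lay far from the rest of their genotype, and chance alone places about 1 in 20 sets there. The fmn array of ZT 12 had a norpA signal of 9229, the next highest fmn array having 6907, a gap of 0.643 of the whole range. The control array of ZT 16 had an Arr2 signal of 33939, the next highest control array having 30902, a gap of 0.616 of the range. The control norpA signal was also high at ZT 12, with 10297. No explanation of either value was tested.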

How the results depend on the processing

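The count of member probe sets called by both thresholds, 0 of 10, became 1 with time point as a replicate block and 1 with cosine and sine as covariates, in each case inaC, and was 3 with no fold threshold. Leaving out 1 array at a time gave 0 to 1. Over all 8641 tested probe sets the count was 629, then 695 with the block, 692 with the covariates and 1606 with no fold threshold. Leaving out single arrays gave 569 to 751 over all. By adjusted p alone the count of 3 became 6 with the block of time point and 6 with cosine and sine as covariates, and 0 with no filter, with median scaling or with quantile normalization, and leaving out single arrays gave 3 to 4. Over all tested probe sets, in either direction, 1606 became 2145 with the block and 2198 with the covariates. It became 852 of 18769 with no filter, 550 with median scaling and 1496 with quantile normalization, and 1239 to 1788 without single arrays. The count of cycles in fmn, 3, was 0 with no filter and 1 with median scaling, and 2 to 3 without single arrays. Over all tested probe sets the fmn cycles went from 370 of 8641 to 59 of 18769 with no filter and 352 with median scaling. Without single arrays they were 213 to 370. In control the count of 2 was 1 with no filter, with median scaling and without the arrays holding RNA of other organs, and 1 to 3 without single arrays. Over all tested probe sets the control cycles went from 444 to 73, 215 and 192 in those settings, and to 222 to 504 without single arrays. For both genotypes together the count of 4 was 2 with median scaling and 3 to 5 without single arrays. Over all tested probe sets 1245 became 724 with median scaling and 994 to 1264 without single arrays. The interaction count was 0 in all 24 alternatives run, both for the members and over all tested probe sets. The only member whose difference changed sign was the second rdgA probe set, which was 0.079 without the fmn array of ZT 12 and ranged from -0.099 to 0.079 without single arrays. The cause of these changes was not tested, except that no filter means more probe sets in the adjustment, 18769, and that quantile normalization sets Arr2, the brightest probe set of every array, to 1 value. Probe sets near a signal of 100, such as the fourth of rdgA, are limited by background.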

Other observations

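A list of genes of chromophore and opsin handling, outside the cascade itself, was read in the same way. Of 12 listed, 7 were tested and 5 had a common cycle (pinta, Pdh, Cnx99A, ninaG and t), where 14.4% of all tested probe sets had one, with a median log2 amplitude over the 7 of 0.35, beside 0.08 for all tested probe sets. By genotype 0 of the 7 were called by limma in either direction, against 7.28% of all tested probe sets. With the time block 1 was, against 8.04% of all, the calnexin gene Cnx99A (log2 difference -0.41; limma, adjusted p = 0.0537 without the block and 0.0118 with it). The retinoid-binding protein gene pinta had signals of 536 to 1218 in fmn heads and 534 to 1227 in control heads, with a common peak at ZT 21.4 (limma, adjusted p = 3.30e-05). Pdh, which encodes a retinol dehydrogenase of the pigment cells, had 12134 to 20620 in fmn heads and 12897 to 20289 in control heads, with a common peak at ZT 1.49 (limma, adjusted p = 6.08e-05). The gene t, tan, encodes the enzyme that frees histamine from carcinine, which is not a step of chromophore or opsin handling. It is included in the counts of this list, and it peaked at ZT 1.71 (limma, adjusted p = 0.00177).

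Of 15 genes of photoreceptor structure and output, 13 were tested. The transcription factor gene pros was called higher in fmn, with 666 to 1243 in fmn heads against 422 to 542 in control heads and no overlap (log2 difference 0.95; limma, adjusted p = 2.32e-05), and 0 were called lower. Of all tested probe sets 7.28% were called in either direction. With the time block prom, a prominin gene, was called lower (log2 difference -0.41, lower at 7 of 7 times; limma, adjusted p = 0.0597 without the block and 0.00666 with it). The block gave a call for 8.04% of all tested probe sets. This prom probe set lay near the filter's limit, with signals of 100 to 164 in fmn heads and 116 to 200 in control heads. A second, dimmer prom probe set had -0.15 and was not called (limma, adjusted p = 0.429 without the block and 0.408 with it). A common cycle was called for 3 of the 13, chp, crb and Inx1, against 14.4% of all tested probe sets. The apical membrane gene crb peaked at ZT 9.55 (limma, adjusted p = 0.000174).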
